A study of Mus musculus with 12 samples.

Results

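ATF4 is the transcription factor at the end of the integrated stress response, and 10 genes were followed here across kidneys with and without ischemia-reperfusion (I/R): Atf4 itself and 9 genes known as its targets, namely Atf5, Ddit3, Trib3, Asns, Psat1, Phgdh, Mthfd2, Gdf15 and Sesn2. They were chosen by name, with earlier results of these data known, as 10 of the 55487 gene identifiers in the count table, and all 10 had enough counts to be tested in every comparison. Bulk RNA-seq had been done on kidney cortex, as the labels give the tissue, from 12 mice aged 6 to 8 weeks on a C57BL/6 background. All 12 carried a floxed ALR allele on both chromosomes (ALR, augmenter of liver regeneration, is encoded by Gfer). The 3 Ctrl and 3 Ctrl+I/R mice carried no Cre, and their genotype is WT in the labels. The 3 PT-KO and 3 PT-KO+I/R mice also carried Ggt1-Cre, which is driven by a promoter active in proximal tubule cells, and their genotype is ALR knockdown in the labels. Ctrl+I/R and PT-KO+I/R mice had 22 min of ischemia of both kidneys and 24 h of reperfusion, and the other 2 groups had none. With 3 kidneys in a group and 1 time point, the comparisons concern the mRNA level at that time. In tissue of mixed cells, fewer cells of a type and less RNA per cell cannot be told apart.

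In the integrated stress response, stress-activated kinases phosphorylate the translation factor eIF2. Most protein synthesis then slows, while the mRNA of Atf4 is translated better because of upstream reading frames. ATF4 in turn activates genes for amino acid uptake and synthesis, the serine and one-carbon pathways, tRNA charging, redox balance and feedback. In kidney and other tissues, damage to mitochondria is one known trigger, and GDF15 is one of its secreted products. The mRNA counts analysed here do not measure eIF2 phosphorylation or ATF4 protein.

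Several facts of the libraries touch the results. Library totals ran from 12165089 to 23123693 counts. The count of the targeted gene Gfer was not lower in the PT-KO groups: it was 12.8 ± 1.52 CPM in Ctrl and 14.0 ± 3.68 in PT-KO, and after I/R 17.6 ± 2.34 in Ctrl+I/R against 22.0 ± 0.67 in PT-KO+I/R (CPM, counts scaled by TMM for library size and composition, mean ± SD, n = 3). These counts do not bear out the genotype labels, and they cannot refute them either. The paper places the LoxP sites around part of the gene, and Ggt1-Cre is active in proximal tubule cells. Counts over the whole gene in mixed tissue do not measure the loss of that part in those cells. PT-KO below means the libraries so labelled. After I/R all 3 Gfer values of PT-KO+I/R lay above those of Ctrl+I/R, opposite to the direction of a knockout. The log2 difference was 0.32 (95% interval 0.03 to 0.61) and was not called (adjusted p = 0.0711). It was 0.11 when scaled by library totals, and it was called when Ctrl+I/R library 2 was left out (0.40, adjusted p = 0.0383). Ctrl libraries 1 and 2 had 22402 and 19755 counts of the female transcript Xist and 0 of Y-linked genes, whereas the other 10 libraries had at most 11 Xist counts and at least 3109 Y-linked counts. The summed level of 10 proximal tubule markers was 16309 to 16870 CPM in Ctrl and 15038 to 16737 in PT-KO, and after I/R 4245 to 10247 in Ctrl+I/R against 2977 to 3764 in PT-KO+I/R. All 10 markers were detected, as the labelled tissue would have. The summed level of 5 neutrophil markers was 0.734 to 1.66 CPM in Ctrl and 0.614 to 1.83 in PT-KO, and after I/R 6.58 to 30.1 in Ctrl+I/R against 50.4 to 77.6 in PT-KO+I/R, with 1 of the 5 at 0 in every library of each group without I/R. The 8 macrophage markers summed to 86.5 to 103 CPM in Ctrl and 89.1 to 94.4 in PT-KO, and after I/R 138 to 262 in Ctrl+I/R against 59.0 to 66.7 in PT-KO+I/R. Single markers did not all follow the sum. In PT-KO+I/R, 5 were called lower and 2 higher than in PT-KO (all genes, 32.6% and 32.8%). Against Ctrl+I/R, 6 were lower and 1 higher (all genes, 24.2% and 22.5%). The 5 fibroblast markers summed to 130 to 181 CPM in Ctrl and 92.4 to 152 in PT-KO, and after I/R 418 to 575 in Ctrl+I/R against 136 to 221 in PT-KO+I/R. For 7 lymphocyte markers the sums were 3.72 to 8.75 and 4.52 to 5.30 CPM, and after I/R 5.19 to 15.7 against 0.445 to 0.774. For 9 markers of the loop, distal tubule and collecting duct they were 5943 to 7901 and 5805 to 6719 CPM, and after I/R 1741 to 4373 against 2310 to 2788. For 7 podocyte and endothelial markers they were 643 to 793 and 565 to 670 CPM, and after I/R 532 to 585 against 639 to 691. The part of sex and of these cell types in the values below was not tested beyond the fits with a sex term given beside them. In Ctrl those fits rest on library 3 alone, because both libraries with Xist were in that group.

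ATF4 binds DNA with C/EBP partners at composite sites, so the 250 bases before each RefSeq start of the 10 genes (GRCm38.p6, 13 windows) were searched on both strands for the composite element TGATGNAA and for the shorter C/EBP-ATF site TGCAAT, which share no bases in any of these windows. The 3 windows that held a match are shown so that the letters found can be read in place. Genes without a match rose as well, and no link between the letters and the mRNA was tested. Capitals mark the match, and the sequence is read on the strand of the gene, 5′ to 3′.
Asns: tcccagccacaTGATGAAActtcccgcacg
Trib3: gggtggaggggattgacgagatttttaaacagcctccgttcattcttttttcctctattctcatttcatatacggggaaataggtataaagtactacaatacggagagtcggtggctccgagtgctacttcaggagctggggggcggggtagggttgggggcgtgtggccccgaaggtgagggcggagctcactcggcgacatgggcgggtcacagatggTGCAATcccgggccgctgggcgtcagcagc
Psat1: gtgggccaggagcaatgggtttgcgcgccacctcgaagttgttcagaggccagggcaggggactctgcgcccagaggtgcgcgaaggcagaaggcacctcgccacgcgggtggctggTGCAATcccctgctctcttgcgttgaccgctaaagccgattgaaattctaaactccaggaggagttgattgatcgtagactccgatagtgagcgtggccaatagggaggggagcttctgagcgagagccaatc
The Asns sequence is the stretch of 30 bases at chr6:7693214-7693243 (minus strand) around the only match to TGATGNAA, which lay -23 to -16 bases from the RefSeq start and within an exon of the GENCODE M21 annotation. The Trib3 sequence is chr2:152344061-152344310 (minus strand), with TGCAAT at -30 to -25, and overlaps no M21 exon. The Psat1 sequence is chr19:15925060-15925309 (minus strand), before the first of 2 RefSeq starts, with TGCAAT at -133 to -128, and lies within the M21 gene Psat1 but in none of its exons. TGATGNAA occurred in 3.45% and TGCAAT in 7.32% of the 32851 windows of the same length in the RefSeq table, and the shorter site was chosen with the members' sequences in view. The other 7 genes had neither set of letters in their windows, which says nothing of sites elsewhere.

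The question of the I/R comparisons was how the stressed kidney differed from the unstressed one in each genotype. In control mice, 7 of the 10 genes rose after I/R and 0 fell (edgeR quasi-likelihood test, adjusted p under 0.05 over all genes tested), against 19.0% of all genes called in either direction, 11.4% higher and 7.61% lower. In PT-KO mice, 9 rose and 0 fell, against 65.5% of all genes called, 32.8% higher and 32.6% lower. The median log2 fold change of the 10 genes was 1.51 in control mice and 2.26 in PT-KO mice, beside -0.01 and 0.01 over all genes tested. The genotype comparisons asked what the knockout changed at rest and after I/R. Between PT-KO and Ctrl, 0 of the 10 genes were called, where edgeR called 0.0327% of all genes. DESeq2 also called 0 of the 10, and 458 of all 15291 genes (3.0%). Of the 10, 3 (Psat1, Phgdh and Ddit3) had an unadjusted edgeR p under 0.05, as did 16.4% of all genes. Between the I/R groups, 5 genes were higher in PT-KO+I/R and 1 was lower, against 46.7% of all genes called, 22.5% higher and 24.2% lower. The difference between the I/R effects of the genotypes, tested as an interaction over all 12 libraries, was called for 5 genes, all with the larger rise in PT-KO, against 30.4% of all genes called, 14.2% in that direction and 16.2% in the other. The 4 comparisons of 2 groups share libraries, so they are not independent of each other.

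The count in control mice rested on few libraries. It was 4 without Ctrl library 1, Ctrl library 2 or Ctrl+I/R library 1, and Asns, Atf5, Psat1 and Mthfd2 were the genes called in all 6 of the fits without 1 library. The number of all genes called dropped to 440, 421 and 921 in the 3 fits named first, from 2953. The interaction was called for 3 genes without PT-KO library 4, a fit that called 23.4% of all genes. A fit to all 12 libraries with a sex term called 7 of the 10 after I/R in control mice (1945 of all 16168 genes, 12%), 9 in PT-KO mice (62.9%), 0 between PT-KO and Ctrl (0.00%), 7 between the I/R groups (52.1%) and 3 in the interaction (19.7%). Both libraries with Xist were in Ctrl, so in the fit with a sex term the Ctrl level rested on Ctrl library 3 alone. PT-KO, Ctrl+I/R and PT-KO+I/R held no such library, so the term could not adjust the comparisons among those groups. Between the I/R groups, the fit to all 12 libraries called 8214 genes without the term and 8424 with it. The balance of higher and lower genes over all genes depended on the scaling. TMM gave 1768 higher and 1185 lower genes after I/R in control mice, 3433 and 3704 between the I/R groups, and 2297 and 2624 in the interaction. Library totals gave 2349 and 700, 1970 and 5058, and 1570 and 2958, and moved the median log2 fold change of all genes to 0.11, -0.21 and -0.10. At rest, library totals moved that median to -0.14 and called 1 lower gene and 0 higher. The members kept the direction of every called difference with library totals.

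**Figure D1:**
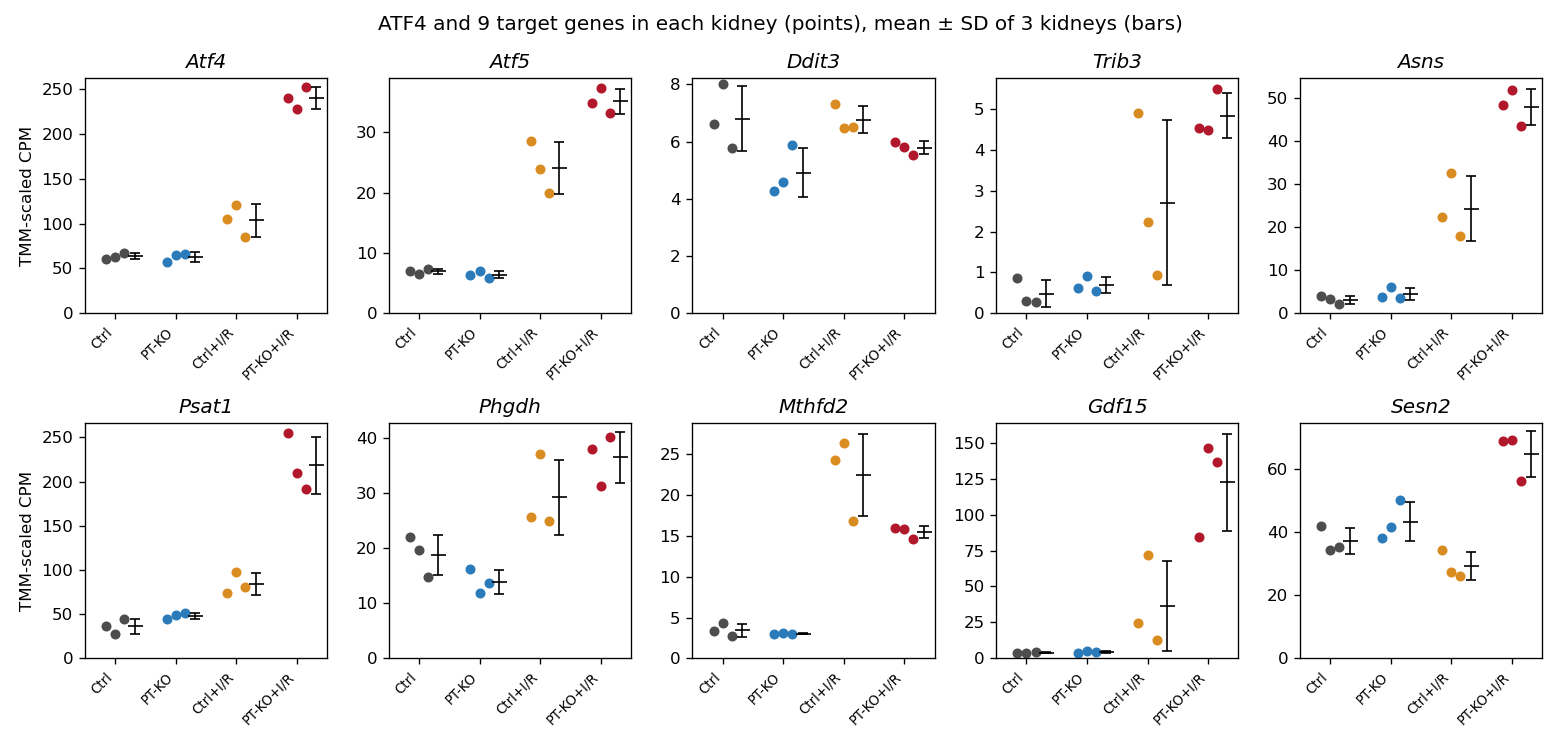
TMM-scaled CPM (y axis, 1 scale per gene) of Atf4 and 9 targets in each of 12 kidneys (points, by group on the x axis), with the mean ± SD of 3 kidneys as bars. Atf4 sits between 57.0 and 67.2 CPM in the kidneys without I/R and between 227 and 252 CPM in PT-KO+I/R, while Ddit3 stays between 4.29 and 8.02 CPM in all 12.

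Among the transcription factors, Atf4 was the most abundant of the 10 genes per length in all 4 groups, at 27.0 ± 1.40 CPM per kb of exon in Ctrl and 102 ± 5.22 in PT-KO+I/R. In libraries 1, 2 and 3 of Ctrl it was at 60.7, 63.1 and 67.2 CPM, and in libraries 1, 2 and 4 of PT-KO at 57.0, 65.3 and 66.4 CPM. After I/R it was at 105, 121 and 84.5 CPM in libraries 1, 2 and 4 of Ctrl+I/R, and at 240, 227 and 252 CPM in libraries 2, 3 and 4 of PT-KO+I/R. The values of the 2 groups without I/R overlapped, and each I/R group lay above them and apart from the other. Atf4 rose 1.63-fold in control mice (log2 fold change 0.71 ± 0.14 SE, adjusted p = 0.0171) and 3.79-fold in PT-KO mice (1.92 ± 0.09, adjusted p = 1.99e-08). PT-KO+I/R exceeded Ctrl+I/R 2.30-fold (1.20 ± 0.14, adjusted p = 0.000459), and the interaction was 1.23 ± 0.17 (adjusted p = 0.00032). The call in control mice was lost on leaving out 1 library in 3 of 6 cases: without Ctrl library 1 (adjusted p = 0.0722), Ctrl library 2 (adjusted p = 0.0714) or Ctrl+I/R library 1 (adjusted p = 0.0591).

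Atf5, an activating transcription factor with upstream reading frames like those of Atf4 and a known inducer of mitochondrial chaperones, followed the same order of groups. In the order of libraries given for Atf4, it was at 7.04, 6.55 and 7.32 CPM in Ctrl and 6.31, 7.0 and 5.89 in PT-KO, and after I/R at 28.6, 23.9 and 20.0 in Ctrl+I/R against 34.9, 37.4 and 33.3 in PT-KO+I/R. The I/R groups did not overlap each other or the groups without I/R. It rose 3.49-fold in control mice (log2 fold change 1.80 ± 0.16, adjusted p = 0.00181) and 5.46-fold in PT-KO mice (2.45 ± 0.12, adjusted p = 2.39e-08). The I/R groups differed 1.45-fold (0.53 ± 0.14, adjusted p = 0.0161), a call that was lost with library totals in place of TMM (0.33, adjusted p = 0.0974) and without PT-KO+I/R library 3 (adjusted p = 0.0596). The interaction was 0.66 ± 0.19 (adjusted p = 0.0214), and its adjusted p was 0.0523 with a sex term, 0.0552 without PT-KO library 4 and 0.0540 without PT-KO+I/R library 3. Exons of Atf5 overlap those of Nup62 and Il4i1 on the opposite strand, and the strand setting of the counting is not given in the sources used here, so reads of these genes may be mixed.

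Ddit3, which encodes the pro-apoptotic factor CHOP and is often used as the readout of this pathway, was the 1 gene of the 10 that was called in none of the comparisons. It was at 6.63, 8.02 and 5.76 CPM in Ctrl and 4.29, 4.58 and 5.89 in PT-KO, and after I/R at 7.32, 6.48 and 6.51 in Ctrl+I/R against 5.99, 5.83 and 5.55 in PT-KO+I/R. Of neighbouring groups in the order of their means, only Ctrl+I/R and PT-KO+I/R did not overlap. The log2 fold change after I/R was 0.00 in control mice (95% interval -0.43 to 0.43) and 0.23 in PT-KO mice (-0.21 to 0.67), so a log2 fold change of 1 lay outside both intervals. PT-KO lay at -0.47 from Ctrl (-0.92 to -0.01, adjusted p = 0.295), and the I/R groups differed by -0.23 (PT-KO+I/R minus Ctrl+I/R, -0.63 to 0.16, adjusted p = 0.289). Exons of Ddit3 overlap those of Mars on the opposite strand, which had up to 1444 counts in a library.

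Trib3 encodes a pseudokinase that is induced by ATF4 and CHOP and feeds back on them. It had the lowest level of the 10 per length in every group. Ctrl libraries were at 0.854, 0.306 and 0.277 CPM and PT-KO libraries at 0.631, 0.915 and 0.552, while Ctrl+I/R libraries were at 4.91, 2.25 and 0.949 and PT-KO+I/R libraries at 4.54, 4.50 and 5.48. The 3 Ctrl+I/R kidneys were spread over the whole range between the unstressed kidneys and PT-KO+I/R, with library 4 close to the former. Trib3 rose 5.59-fold in control mice (log2 fold change 2.48 ± 0.70, adjusted p = 0.0472) and 6.77-fold in PT-KO mice (2.76 ± 0.29, adjusted p = 8.54e-06). Its difference between the I/R groups was 0.81 ± 0.50 (adjusted p = 0.218), and 1.57 (adjusted p = 0.0224) without Ctrl+I/R library 1. The log2 fold change in control mice ran from 1.71 without Ctrl+I/R library 1 to 3.22 without Ctrl library 1, and was 3.28 with a sex term. The call there was lost in 5 of 6 fits without 1 library, with adjusted p up to 0.144, and was kept in the fit without Ctrl+I/R library 4 (adjusted p = 0.0127).

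The members include 4 metabolic enzymes. Asns, asparagine synthetase, whose element is printed above, stood at 3.92, 3.37 and 2.05 CPM in Ctrl and 3.72, 6.14 and 3.56 in PT-KO, and after I/R at 22.5, 32.7 and 17.8 in Ctrl+I/R against 48.3, 51.8 and 43.5 in PT-KO+I/R. Every kidney with I/R was above every kidney without, and every PT-KO+I/R kidney above every Ctrl+I/R kidney. Asns rose 7.82-fold in control mice (log2 fold change 2.97 ± 0.30, adjusted p = 0.00305) and 10.6-fold in PT-KO mice (3.40 ± 0.19, adjusted p = 7.75e-08). PT-KO+I/R exceeded Ctrl+I/R 1.96-fold (0.97 ± 0.20, adjusted p = 0.00595). The interaction was 0.45 ± 0.39 (95% interval -0.41 to 1.30, adjusted p = 0.414), and PT-KO was 0.52 ± 0.31 from Ctrl (adjusted p = 0.410).

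Phgdh and Psat1 encode consecutive enzymes of serine synthesis from a glycolytic intermediate. Psat1 stood at 36.4, 27.7 and 44.1 CPM in Ctrl and 44.8, 48.5 and 51.7 in PT-KO, and after I/R at 73.6, 97.7 and 80.7 in Ctrl+I/R against 255, 209 and 192 in PT-KO+I/R. No 2 groups overlapped, although Ctrl library 3 at 44.1 CPM and PT-KO library 1 at 44.8 CPM were next to each other. Psat1 rose 2.33-fold in control mice (log2 fold change 1.22 ± 0.18, adjusted p = 0.00877) and 4.50-fold in PT-KO mice (2.17 ± 0.11, adjusted p = 3.58e-08). PT-KO+I/R exceeded Ctrl+I/R 2.59-fold (1.38 ± 0.15, adjusted p = 0.000327), with an interaction of 0.96 ± 0.23 (adjusted p = 0.00807). Phgdh moved less. It stood at 22.0, 19.6 and 14.9 CPM in Ctrl and 16.2, 11.8 and 13.7 in PT-KO, and after I/R at 25.6, 37.2 and 25.0 in Ctrl+I/R against 38.1, 31.4 and 40.3 in PT-KO+I/R. Its I/R groups overlapped each other. Its fold change was 1.56 in control mice (0.64 ± 0.20, adjusted p = 0.0555, but 0.0273 with DESeq2 and 0.0302 with a sex term) and 2.61 in PT-KO mice (1.39 ± 0.14, adjusted p = 7.1e-06). Between the I/R groups it was 0.32 ± 0.17 (adjusted p = 0.157), and 0.51 (adjusted p = 0.0155) without Ctrl+I/R library 2. The interaction for Phgdh was 0.76 ± 0.26 (adjusted p = 0.0455), and 0.42 (adjusted p = 0.337) in the fit with a sex term. It was lost as well with library totals (adjusted p = 0.113), without a low-count filter (adjusted p = 0.0554) and in 8 of the 12 fits without 1 library (Ctrl library 1 or 2, PT-KO library 2 or 4, Ctrl+I/R library 1 or 4, or PT-KO+I/R library 2 or 4), with adjusted p up to 0.112.

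Between PT-KO and Ctrl at rest, these serine enzymes had the lowest unadjusted p of the 10 genes and lay in opposite directions: Psat1 at a log2 fold change of 0.42 (95% interval 0.07 to 0.77, adjusted p = 0.259) and Phgdh at -0.44 (-0.83 to -0.05, adjusted p = 0.268). Without Ctrl library 3, which left the 2 libraries with Xist as the control group, both were called, at 0.59 (adjusted p = 0.0118) and -0.58 (adjusted p = 0.0266). The same fit called 2032 genes in all, against 5 with that library.

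Mthfd2 encodes a mitochondrial enzyme of the folate cycle that is low in most adult tissue. It was the 1 gene of the 10 that was called lower in PT-KO+I/R when the I/R groups were compared. It stood at 3.32, 4.28 and 2.72 CPM in Ctrl and 2.97, 3.07 and 2.94 in PT-KO, and after I/R at 24.3, 26.4 and 16.8 in Ctrl+I/R against 15.9, 15.8 and 14.6 in PT-KO+I/R. The lowest Ctrl+I/R kidney, at 16.8 CPM, was close to the highest PT-KO+I/R kidney, at 15.9 CPM. Mthfd2 rose 6.59-fold in control mice (log2 fold change 2.72 ± 0.23, adjusted p = 0.00174) and 5.13-fold in PT-KO mice (2.36 ± 0.16, adjusted p = 1.77e-07). The difference between the I/R groups was -0.55 ± 0.17 (adjusted p = 0.0293), and that call was lost in 5 of 6 fits without 1 library, with adjusted p up to 0.103. It was kept without Ctrl+I/R library 4. The interaction was -0.35 ± 0.27 (adjusted p = 0.357).

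Gdf15, a secreted stress hormone that lowers appetite through the receptor GFRAL, had the highest fold change of the 10 genes after I/R in PT-KO mice, in every fit that was run. In control mice it was highest over all 6 libraries, but its log2 fold change was 2.35 without Ctrl+I/R library 2, below Asns (2.72), Trib3 (2.62) and Mthfd2 (2.61), and 3.14 with a sex term, below Asns (3.57) and Trib3 (3.28). It stood at 3.62, 3.49 and 4.16 CPM in Ctrl and at 3.79, 4.90 and 4.29 in PT-KO. After I/R it reached 24.5, 71.9 and 13.1 CPM in Ctrl+I/R, and 84.1, 146 and 137 in PT-KO+I/R. Every PT-KO+I/R kidney was above every Ctrl+I/R kidney, and within Ctrl+I/R library 2 stood apart from the other two. Gdf15 rose 9.71-fold in control mice (log2 fold change 3.28 ± 0.69, adjusted p = 0.0309) and 28.1-fold in PT-KO mice (4.81 ± 0.25, adjusted p = 2.03e-06). The difference between the I/R groups was 1.75 ± 0.62 and was not called by edgeR (adjusted p = 0.0603), though DESeq2 gave an adjusted p of 0.0403. Without Ctrl+I/R library 2 it was 2.67 and called (adjusted p = 0.00438), and the interaction, 1.54 ± 0.81 (adjusted p = 0.184) over all libraries, was then 2.47 (adjusted p = 0.00194). The rise in control mice was lost in 4 of 6 fits without 1 library, with adjusted p up to 0.110 (those without a Ctrl library or without Ctrl+I/R library 1), in the fit with a sex term (adjusted p = 0.0717) and without a low-count filter (adjusted p = 0.0828).

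Sesn2, which encodes the leucine sensor and mTORC1 inhibitor sestrin 2, separated the genotypes after I/R without having risen in control mice. It stood at 41.9, 34.3 and 35.2 CPM in Ctrl and 38.2, 41.6 and 50.4 in PT-KO, and after I/R at 34.5, 27.4 and 26.2 in Ctrl+I/R against 69.1, 69.1 and 56.4 in PT-KO+I/R. Only PT-KO+I/R stood apart, and the other 3 groups overlapped their neighbours. The log2 fold change was -0.33 ± 0.14 in control mice (adjusted p = 0.129) and 0.57 ± 0.12 in PT-KO mice (adjusted p = 0.0014). For Sesn2, PT-KO+I/R exceeded Ctrl+I/R 2.20-fold (1.13 ± 0.14, adjusted p = 0.000595), with an interaction of 0.92 ± 0.20 (adjusted p = 0.00412). By level per length, Sesn2 was at rank 2 of the 10 genes in both groups without I/R, rank 7 in Ctrl+I/R and rank 4 in PT-KO+I/R, whereas Gdf15 was at rank 7 without I/R, rank 3 in Ctrl+I/R and rank 2 in PT-KO+I/R.

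**Figure D2:**
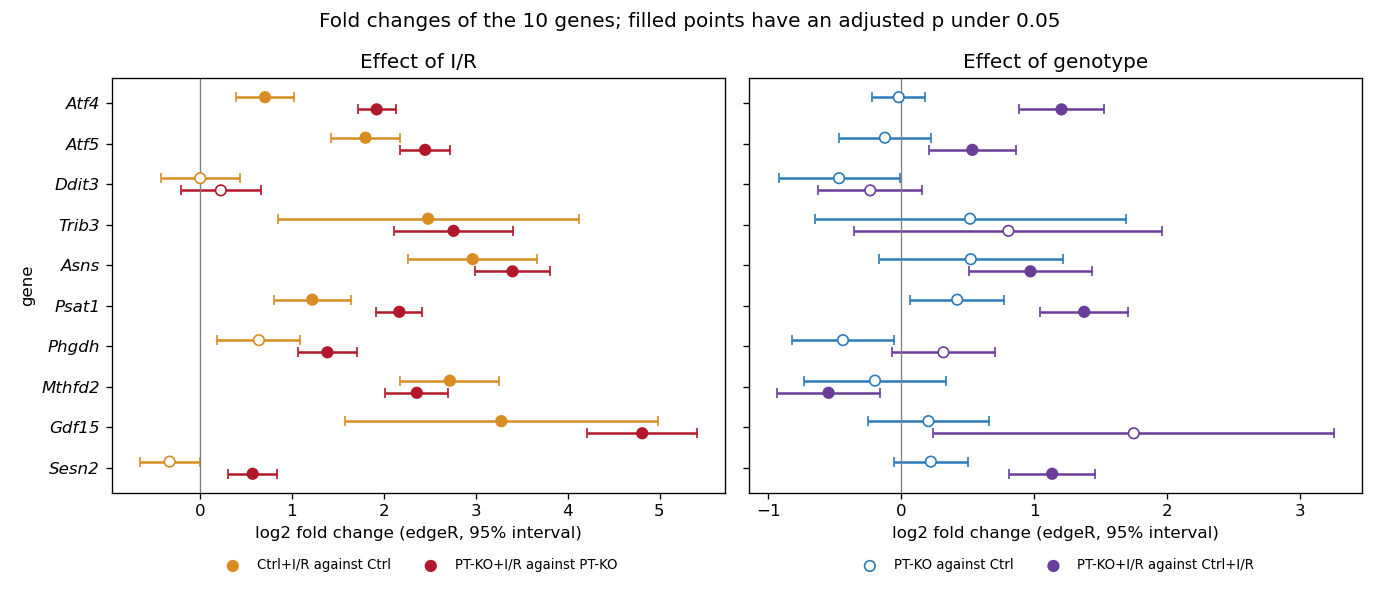
Log2 fold change from edgeR (x axis) with its 95% interval for each of the 10 genes (y axis), for I/R against no I/R in each genotype (left) and PT-KO against Ctrl with and without I/R (right). Filled points have an adjusted p under 0.05, which 7, 9, 0 and 6 genes have in the 4 comparisons, and Ddit3 is open in each.

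The SD of CPM was larger in Ctrl+I/R than in PT-KO+I/R for Atf4, Atf5, Ddit3, Trib3, Asns, Phgdh and Mthfd2. Ctrl+I/R library 4 was the lowest of its group for 8 of the 10 genes and the highest for 0, and library 2 was the highest for 6. Of the 7 marker sums given above, library 2 of Ctrl+I/R was nearest to the PT-KO+I/R mean for 4 (proximal tubule, neutrophil, macrophage, and loop to collecting duct), library 4 for 2 (fibroblast and lymphocyte) and library 1 for 1 (podocyte and endothelial). The part of this spread in the differences between the I/R groups was not tested.

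Genes upstream of Atf4 were described from a list of 15 kinases, eIF2 and eIF2B subunits, phosphatase subunits and regulators. In control mice after I/R, 1 rose and 0 fell, where 11.4% of all genes rose and 7.61% fell. In PT-KO mice, 10 rose and 1 fell, where 32.8% of all genes rose and 32.6% fell. Against Ctrl+I/R, 6 were higher in PT-KO+I/R and 0 were lower, where 22.5% of all genes were higher and 24.2% lower. The largest difference was in Ppp1r15a, which encodes GADD34, the inducible subunit of the phosphatase that restores eIF2. Ppp1r15a stood at 9.64 to 14.6 CPM in Ctrl and 12.5 to 13.4 in PT-KO, and after I/R at 9.99 to 18.3 in Ctrl+I/R against 61.0 to 77.8 in PT-KO+I/R. Its log2 fold change after I/R was 0.30 ± 0.25 in control mice (adjusted p = 0.404) and 2.41 ± 0.11 in PT-KO mice (adjusted p = 1.65e-08), with an interaction of 2.12 ± 0.28 (adjusted p = 0.000275). Ppp1r15b, the constitutive subunit, was called in none of the comparisons.

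Among the subunits of eIF2B, the exchange factor that phosphorylated eIF2 blocks, Eif2b3 stood at 11.2 ± 1.10 CPM in Ctrl and 13.6 ± 2.09 in PT-KO, and after I/R at 14.9 ± 1.36 in Ctrl+I/R against 41.3 ± 4.08 in PT-KO+I/R. PT-KO+I/R exceeded Ctrl+I/R by a log2 fold change of 1.46 ± 0.12 (adjusted p = 0.000139), with an interaction of 1.17 ± 0.19 (adjusted p = 0.000803). For Eif2b2 the excess was 0.67 ± 0.10 (adjusted p = 0.00114), with an interaction of 0.55 ± 0.12 (adjusted p = 0.00549). Eif2b1 and Eif2b4 were called in no comparison, and Eif2b5 rose by 0.36 ± 0.09 after I/R in PT-KO mice (adjusted p = 0.00498, interaction adjusted p = 0.347). Eif2s1, the subunit of eIF2 that is phosphorylated, was the gene of the list that rose in control mice, by 0.56 ± 0.12 (adjusted p = 0.0234, lost without Ctrl library 1 or 2 or Ctrl+I/R library 1 and, at 0.0742, with a sex term), and it rose by 0.76 ± 0.09 in PT-KO mice (adjusted p = 1.33e-05). Its I/R groups differed by 0.41 ± 0.11 (adjusted p = 0.0174), a call lost with library totals (0.20, adjusted p = 0.213). Leaving out Ctrl+I/R library 1 or 4 or PT-KO+I/R library 4 lost it as well, with adjusted p up to 0.0787.

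Of the 4 kinases of eIF2, 3 rose and 1 fell after I/R in PT-KO mice, where 32.8% of all genes rose and 32.6% fell. After I/R in PT-KO mice, Eif2ak4 (GCN2, which senses uncharged tRNA) rose by 0.68 ± 0.16, Eif2ak3 (PERK, of the endoplasmic reticulum) by 0.43 ± 0.08 and Eif2ak2 (PKR, which senses double-stranded RNA) by 0.45 ± 0.11 on the log2 scale (adjusted p = 0.00265, 0.000754 and 0.00288). Eif2ak1 (HRI, which senses heme and relays mitochondrial stress) had -0.20 ± 0.08 (adjusted p = 0.0436), a call that was kept in 1 of 6 fits without 1 library, the one without PT-KO library 1, and lost with DESeq2 (adjusted p = 0.060), library totals (0.108), no low-count filter (0.120) and the fit to all 12 libraries (0.0636). That last fit also lost the call of Eif2ak2 (adjusted p = 0.0619, and 0.0715 with a sex term). No kinase was called in control mice, between the I/R groups or in the interaction. Gcn1, a partner of GCN2 listed under an older symbol in the table, and Impact, which competes for GCN1, were also higher in PT-KO+I/R when set against Ctrl+I/R, by 0.74 ± 0.17 (adjusted p = 0.00769) and 0.76 ± 0.15 (adjusted p = 0.00493). Oma1, the mitochondrial protease upstream of HRI, was called in none of the comparisons.

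**Figure D3:**
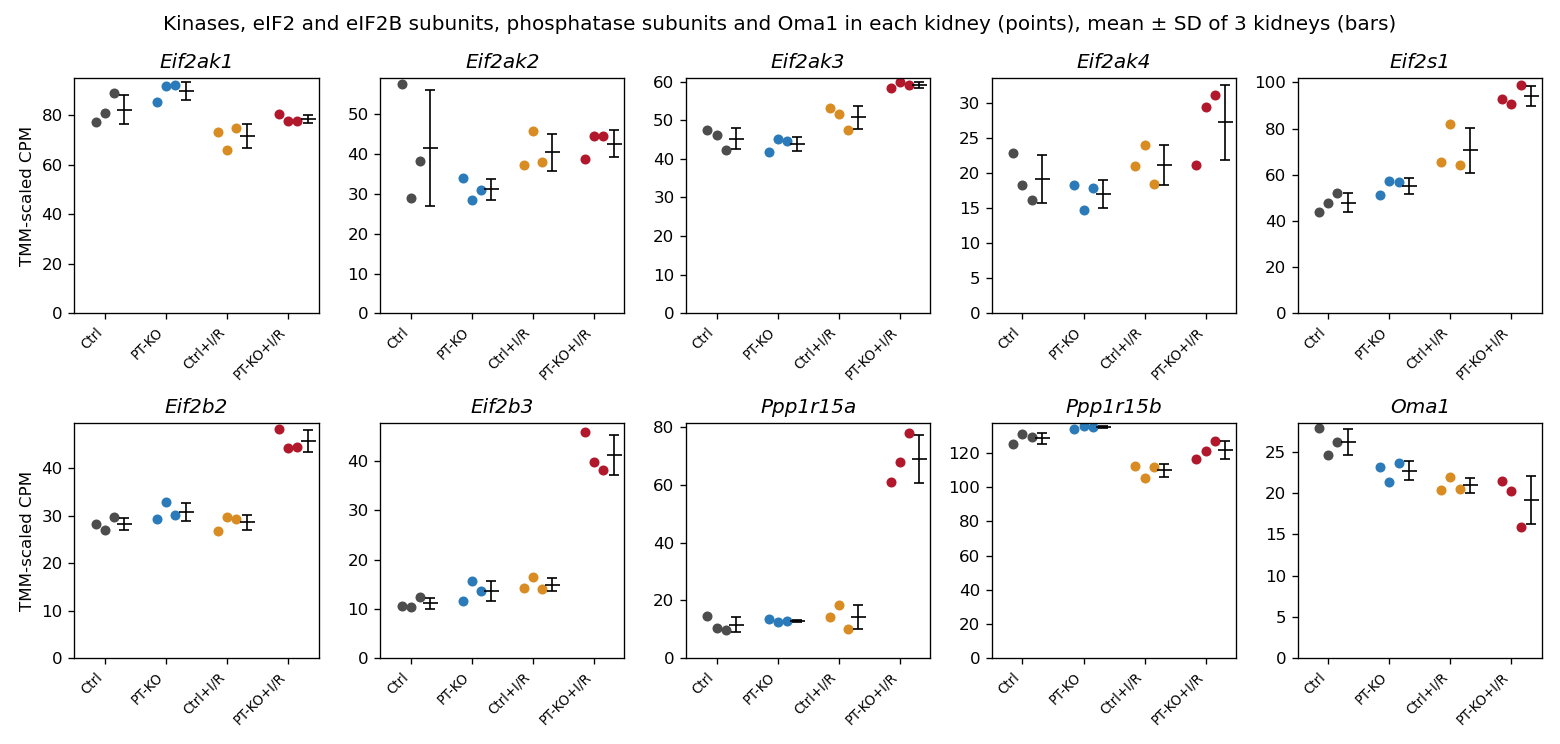
TMM-scaled CPM (y axis, 1 scale per gene) of 10 of the 15 upstream genes in each of 12 kidneys (points, by group on the x axis), with the mean ± SD of 3 kidneys as bars. Ppp1r15a lies between 61.0 and 77.8 CPM in PT-KO+I/R and between 9.64 and 18.3 CPM in all other kidneys, and Eif2b3 and Eif2b2 also stand apart in PT-KO+I/R.

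A further list of 35 genes known as ATF4 targets was set beside the 10. In control mice after I/R, 17 of 34 tested rose and 3 fell, against 11.4% and 7.61% of all genes. In PT-KO mice, 19 of 33 rose and 5 fell, against 32.8% and 32.6%. Between the I/R groups, 12 of 34 were higher in PT-KO+I/R and 10 lower, with a median log2 fold change of 0.14, beside 0.89 for the 10 genes and 0.00 over all genes tested. Between PT-KO and Ctrl, 0 of 32 were called by edgeR, where 0.0327% of all genes were called. Of all genes, 2503 had an unadjusted edgeR p under 0.05, and DESeq2 called 458. In the interaction, 7 of 34 were higher and 3 lower, against 14.2% and 16.2% of all genes. Between the I/R groups, 22.5% of all genes were higher and 24.2% lower.

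The genes described next had the 3 highest or 3 lowest log2 fold changes among the called genes of this list in a comparison. Slc7a11, the cystine importer xCT, stood at 0.251 to 0.610 CPM in Ctrl and 0.252 to 0.552 in PT-KO, and after I/R at 0.696 to 2.25 in Ctrl+I/R against 3.94 to 21.9 in PT-KO+I/R. Its log2 fold change was 1.68 ± 0.54 in control mice (adjusted p = 0.0621) and 5.09 ± 0.82 in PT-KO mice (adjusted p = 0.00235), and 3.17 ± 0.69 between the I/R groups (adjusted p = 0.0112). The last call was lost without Ctrl+I/R library 4 (adjusted p = 0.0515) and without a low-count filter (adjusted p = 0.0637), and without PT-KO+I/R library 3 the values in PT-KO mice and between the I/R groups were 4.47 and 2.55. Chac1, which degrades glutathione, stood at 0.222 to 0.704 CPM in Ctrl and 0.614 to 1.24 in PT-KO, and after I/R at 0.822 to 2.63 in Ctrl+I/R against 9.87 to 17.0 in PT-KO+I/R. It rose by 2.13 ± 0.57 on the log2 scale in control mice (adjusted p = 0.0383) and by 3.92 ± 0.29 in PT-KO mice (adjusted p = 5.54e-07), and the I/R groups differed by 2.79 ± 0.39 (adjusted p = 0.00117). Its call in control mice was kept in 1 of 6 fits without 1 library, the one without Ctrl+I/R library 4. Atf3, an immediate early transcription factor, rose by 3.34 ± 0.59 in control mice (adjusted p = 0.0176, lost without Ctrl library 1 or 2 or without a low-count filter, and 2.73 without Ctrl+I/R library 2) and 3.83 ± 0.45 in PT-KO mice (adjusted p = 0.00018), and its I/R groups overlapped at 6.01 to 24.3 and 10.8 to 28.4 CPM (difference 0.40 ± 0.56, adjusted p = 0.585). Cebpb, a C/EBP partner, was at 5.50 to 16.9 CPM in Ctrl+I/R and 35.9 to 41.9 CPM in PT-KO+I/R, a difference of 1.68 ± 0.36 (adjusted p = 0.00969, and 0.0547 without a low-count filter).

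Slc3a2, the heavy chain that xCT and other carriers need, was at 240 to 309 CPM in Ctrl and 185 to 199 in PT-KO, and after I/R at 157 to 199 in Ctrl+I/R against 308 to 376 in PT-KO+I/R. It fell by 0.57 ± 0.15 on the log2 scale after I/R in control mice (adjusted p = 0.0393) and rose by 0.81 ± 0.10 in PT-KO mice (adjusted p = 1.9e-05), with an interaction of 1.39 ± 0.18 (adjusted p = 0.000185). The fall in control mice was not called with library totals (-0.47, adjusted p = 0.0731), with a sex term (adjusted p = 0.135) or without Ctrl library 1 or 2 or Ctrl+I/R library 1 or 2. Slc1a4, a carrier of serine and other small neutral amino acids, went the other way: it rose by 1.70 ± 0.26 in control mice (adjusted p = 0.012), fell by 0.84 ± 0.29 in PT-KO mice (adjusted p = 0.0398) and was lower in PT-KO+I/R when set against Ctrl+I/R (log2 fold change -1.67 ± 0.27, adjusted p = 0.00287). Its CPM was 41.1 to 80.5 in Ctrl+I/R and 15.5 to 24.0 in PT-KO+I/R. In PT-KO libraries 1, 2 and 4 it was 26.1, 48.0 and 26.3, so library 2 stood apart in the group from which it fell. Shmt2, which makes the mitochondrial one-carbon units that MTHFD2 oxidizes, fell by 1.97 ± 0.11 in PT-KO mice (adjusted p = 5.71e-08), to 56.6 to 62.9 CPM from 199 to 265 CPM. Aldh1l2, a mitochondrial folate enzyme, was at 5.07 to 8.08 CPM in Ctrl+I/R and 3.29 to 3.55 CPM in PT-KO+I/R (-1.04 ± 0.24, adjusted p = 0.0088).

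Pycr1, the mitochondrial enzyme of proline synthesis, had at most 22 counts in a library. It rose by 2.14 ± 0.48 on the log2 scale after I/R in control mice (adjusted p = 0.0242) and was lower in PT-KO+I/R when set against Ctrl+I/R (-1.35 ± 0.48, adjusted p = 0.0484), a call lost with DESeq2 (adjusted p = 0.102), without a low-count filter (adjusted p = 0.127) and in the fit to all 12 libraries (adjusted p = 0.0676, and 0.0697 with a sex term). The rise was lost with a sex term (adjusted p = 0.221) and without Ctrl library 1 or 2 or Ctrl+I/R library 1 or 2, and the difference between the I/R groups without Ctrl+I/R library 1 or 2 or PT-KO+I/R library 3 or 4. It was not tested in PT-KO mice, nor was the hormone gene Fgf21 in any comparison, for want of counts. Cth, which makes cysteine from cystathionine, fell by 0.84 ± 0.22 in control mice (adjusted p = 0.0369) and by 1.30 ± 0.10 in PT-KO mice (adjusted p = 7.14e-07). Herpud1, a component of endoplasmic reticulum degradation, fell by 0.86 ± 0.21 (adjusted p = 0.0300) and 1.16 ± 0.13 (adjusted p = 1.26e-05). Both falls in control mice were lost without any one of the Ctrl libraries and without Ctrl+I/R library 1, and that of Cth with a sex term (adjusted p = 0.0623). The 10 proximal tubule markers moved in the same direction in PT-KO mice, where 10 of 10 fell (all genes, 32.6%). In control mice 3 of 10 fell (all genes, 7.61%). Of the 9 markers of the loop, distal tubule and collecting duct, 8 fell in PT-KO mice and 3 in control mice. The part of either set of markers in the falls of Cth, Herpud1 and Shmt2 was not tested.

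**Figure D4:**
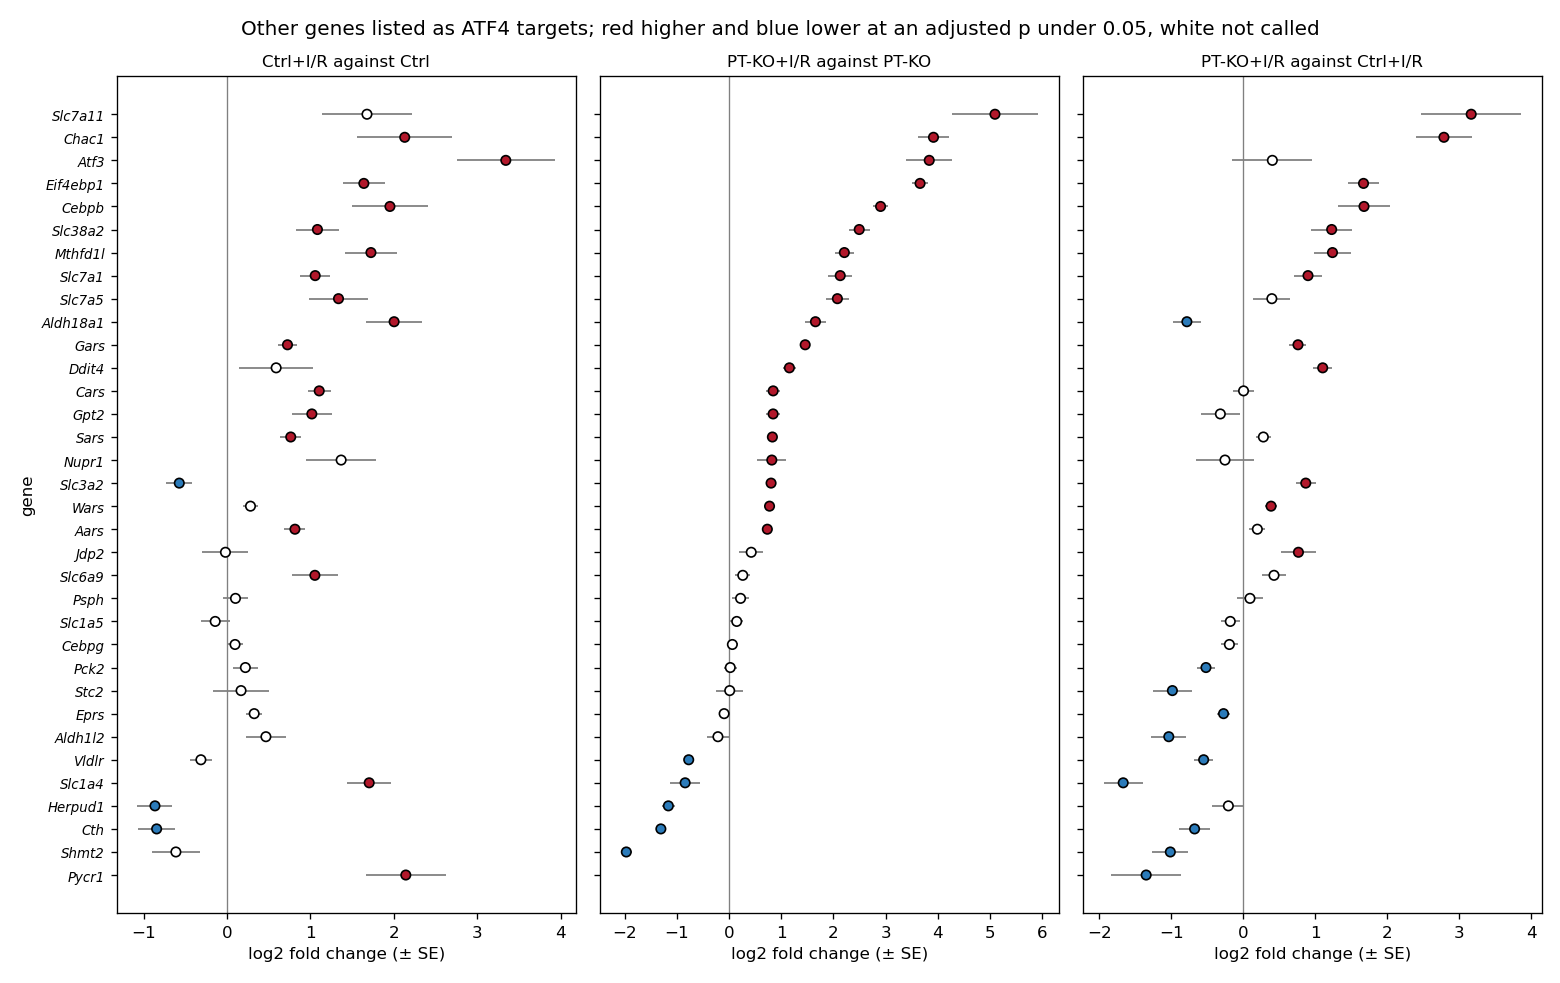
Log2 fold change from edgeR ± SE (x axis) of the other genes known as ATF4 targets that were tested (y axis) in 3 comparisons. Red points are higher and blue points lower at an adjusted p under 0.05 and white points are not called: 17 red and 3 blue after I/R in control mice, 19 and 5 after I/R in PT-KO mice, and 12 and 10 between the I/R groups.

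Gdf15 and Sesn2 are also known targets of p53, so a list of 13 p53 targets was set beside them. In control mice after I/R, 4 of 13 rose and 1 fell (all genes, 11.4% and 7.61%). In PT-KO mice, 11 rose and 1 fell (all genes, 32.8% and 32.6%), and against Ctrl+I/R, 7 were higher in PT-KO+I/R and 0 were lower (all genes, 22.5% and 24.2%). Cdkn1a, which encodes the cell cycle inhibitor p21, stood at 3.60 to 6.85 CPM in Ctrl and 2.15 to 4.48 in PT-KO, and after I/R at 15.2 to 40.9 in Ctrl+I/R against 187 to 256 in PT-KO+I/R. It rose by 2.30 ± 0.41 on the log2 scale in control mice (adjusted p = 0.0186, lost without the same 3 libraries as Eif2s1 and, at 0.0543, without a low-count filter) and by 6.24 ± 0.26 in PT-KO mice (adjusted p = 4.8e-07), with an interaction of 3.95 ± 0.57 (adjusted p = 0.000938). Mdm2, the ubiquitin ligase of p53, was at 43.5 to 49.7 CPM in Ctrl+I/R and 73.8 to 94.1 CPM in PT-KO+I/R (0.85 ± 0.12, adjusted p = 0.000883). Whether p53 took part in the levels of Gdf15 and Sesn2 was not tested.

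The genes whose pattern over the 12 libraries was most like that of each member were found by the root mean square difference of log2 CPM, each gene centred on its own mean, among the 11229 genes that averaged 5 CPM or more. Slc39a6 was nearest to Atf4, with a difference of 0.11, followed by Ptpn12 and Ctsl at 0.12 each. The 3 nearest to Atf5 were Arpc1b, Tmsb10 and Dtx4 at 0.21 each, and those to Ddit3 were Ccdc137 (0.13), Rad1 (0.13) and Limk2 (0.14). Trib3 was nearest to Pdlim1 (0.27), Efhd2 (0.33) and Stat3 (0.35). Among the enzymes, Asns was nearest to 2200002D01Rik (0.34), Nrg1 (0.38) and Vtcn1 (0.39), and Psat1 to Rflnb (0.18), Fth1 (0.20) and Lrrc59 (0.25). Phgdh was nearest to Cerk (0.12), Mical2 (0.13) and Hdac7 (0.13), and Mthfd2 to Tubb2b (0.26), Clu (0.27) and Tubb5 (0.28). Plaur (0.29), Slc25a24 (0.33) and Maff (0.34) were nearest to Gdf15, and Avl9 (0.16), Rora (0.16) and Xpa (0.17) to Sesn2. These are descriptions over libraries that share groups. A gene with a small spread, such as Ddit3 with an SD of 0.23 on the log2 scale, can have near neighbours for that reason.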

How the data were processed

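The deposited table holds whole-number read counts per gene, which the authors made from RNA-seq of kidney on an Illumina sequencer and which are not normalized. The submitters' processing notes name HISAT2 2.0.4 and the mouse build mm10. The counting program, the annotation and the strand setting are not given in the sources used here. Of 55487 Ensembl identifiers, 55141 had a symbol in GENCODE M21 and 29160 had a count. Groups came from the sample labels, except Ctrl library 3, whose column name gives its group but matches no single sample title. Some groups share replicate numbers, but no source says that these pair the mice.

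Genes were filtered with filterByExpr, scaled with TMM and compared by the quasi-likelihood method of edgeR 4.0.16 (R 4.3.3). Each comparison was fitted to its own 6 libraries, and the interaction to all 12, with Benjamini-Hochberg adjustment over all genes tested and a threshold of 0.05. With 3 libraries on each side, the smallest two-sided p of an exact permutation test is 0.1, and calls therefore come from the model. The script was tested on simulated counts. Alternatives were DESeq2 1.42.0, library totals, omitting the filter, a stricter filter (every library with 10 counts or more), a fit to all 12 libraries with and without sex, a replicate block and leaving out each library.

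The 10 genes, the lists of 35 other ATF4 targets, 15 regulators and 13 p53 targets, and the tests were chosen with earlier results of these data known. Genes named are all 10 members, all 15 regulators or their counts, Cdkn1a and Mdm2, the 3 highest and 3 lowest called genes of the list of other targets in each I/R comparison and between the I/R groups, and the 3 genes nearest to each member by pattern. Fgf21 was named because it lacked counts. Depth was 12165089 to 23123693 counts a library. Promoter windows came from RefSeq (GRCm38.p6).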

Additional observations from a re-analysis of the deposited data

Results flagged for a closer look

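For 5 of the 10 genes the response to I/R differed between the genotypes by the interaction test of edgeR over all 12 libraries. The log2 fold change after I/R was larger in PT-KO than in control mice by 1.23 for Atf4 (adjusted p = 0.00032), 0.96 for Psat1 (adjusted p = 0.00807), 0.92 for Sesn2 (adjusted p = 0.00412), 0.76 for Phgdh (adjusted p = 0.0455) and 0.66 for Atf5 (adjusted p = 0.0214). Of all genes tested, 14.2% were called in this direction. In these 5 genes the levels without I/R overlapped between PT-KO and Ctrl except for Psat1. Atf4, Psat1 and Sesn2 were called with a sex term as well, and Atf5 (adjusted p = 0.0523) and Phgdh (adjusted p = 0.337) were not.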

How the results depend on the processing

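The number of the 10 genes called was 4 to 8 after I/R in control mice over the fits that left out 1 library (421 to 4082 of all genes), 9 in each of the 6 such fits in PT-KO mice (9123 to 10271), 0 to 2 between PT-KO and Ctrl (0 to 2032), 4 to 7 between the I/R groups (4902 to 7525) and 3 to 6 in the interaction (3581 to 5461). With the replicate number as a block it was 2 between PT-KO and Ctrl, 3 between the I/R groups and 3 in the interaction. Residual correlations of the same-numbered libraries ran from -0.36 to 0.37, and no source says that a shared number marks a shared animal, litter or day, so the block is given here as an alternative alone. The block moved the count of all genes called from 5 to 1293 between PT-KO and Ctrl and from 7137 to 1531 between the I/R groups. With a sex term, the interaction was called for 3 genes. In the fits with a sex term, Ctrl rests on library 3 alone, and comparisons of groups without a library with Xist cannot be adjusted. Those fits count among the alternatives that follow. Of 182 alternatives to a called result of a member, other than leaving out a library, 170 kept the call, 12 lost it and 0 changed direction, and leaving out a library lost 28 of 192 and changed the direction of 0. Of 153 such alternatives to a result that was not called, 9 gained a call and 5 changed direction, and leaving out a library gained 7 and changed the direction of 7 of 168. The changes of direction, on the log2 scale, follow, with those of Gfer, which these counts leave out. Ddit3 after I/R in control mice was -0.0044 in the fit to all 12 libraries, -0.070 with the block and -0.093 to 0.15 without 1 library. Atf4 between PT-KO and Ctrl was -0.062 to 0.051 without 1 library. With a sex term, Mthfd2 was 0.14 and Gfer -0.035 between PT-KO and Ctrl, and the interaction was -0.51 for Trib3 and -0.16 for Asns. Without 1 library, Gfer was -0.034 to 0.33 between PT-KO and Ctrl, the Gfer interaction was -0.0036 to 0.36 and the Trib3 interaction -0.44 to 1.06. The cause of these changes was not tested. For the whole table, DESeq2 called 458 genes and no low-count filter 407 between PT-KO and Ctrl, against 5. DESeq2 called 4046 genes, the fit to all 12 libraries 4924 and that fit with a sex term 1945 after I/R in control mice, against 2953. The interaction was called for 3183 genes with a sex term and 3242 with the block, against 4921. Trib3, Pycr1, Chac1, Slc7a11, Atf3 and Fgf21 had under 20 counts in at least 1 library of a group, and how much of their error is counting error was not tested.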
